A study of Mus musculus with 5 samples.

Results

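The transforming growth factor beta (TGF-β) superfamily comprises secreted ligands, their receptors and the proteins that hold, block or relay the signal. The members followed here are the 58 genes, of 18820 with a row of their own on the array, whose symbol marks them as TGF-β, bone morphogenetic protein (BMP), growth differentiation factor (GDF), activin or inhibin ligands, their receptors, SMAD and SMURF proteins, latent TGF-β binding proteins, follistatin-like proteins or noggin, with 1 BMP ligand left out of the definition. Symbol matching also brought in 4 genes that carry a family name without being a ligand, receptor or SMAD. A further 6 rows with a matching symbol also carried the symbol of another gene and were not used. *Tgfbr2*, *Fst* and *Gdf15* fit the definition but had no row of their own and were not read. Liver RNA came from adult C57BL/6 mice that received daily subcutaneous injections for 4 days and were culled on day 5. The 3 treated mice received CSF1-Fc, pig macrophage colony-stimulating factor (CSF1) fused to the Fc part of a pig antibody, and the 2 control mice received phosphate-buffered saline (PBS). Each mouse gave 1 Affymetrix Mouse Gene 1.1 ST array, and the comparison asks what CSF1-Fc changed in liver gene expression, including growth factors that act on hepatocytes.

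TGF-β and activin ligands bind a pair of type II and type I receptors that phosphorylate SMAD2 and SMAD3, whereas BMPs and several GDFs act through SMAD1, SMAD5 and SMAD9. Both branches share SMAD4, and SMAD6, SMAD7 and the SMURF ubiquitin ligases limit them. In the liver, TGF-β and activins are known to restrain hepatocyte division and to drive matrix production by stellate cells, and BMPs set hepcidin transcription. TGF-β is secreted in a latent form that must be released from its binding proteins before it can signal.

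The arrays were alike in scale, with a median intensity of 31.1 to 33.04 in CSF1-Fc livers and 32.1 to 32.2 in PBS livers, and log2 values correlated at 0.983 to 0.990 within CSF1-Fc livers, 0.991 within PBS livers and 0.960 to 0.973 across the groups. Hepatocyte markers were bright in every liver, with a summed linear intensity over 14 genes of 76383 to 83699 in CSF1-Fc livers and 87522 to 89971 in PBS livers, and none of them passed limma (0 higher and 4 lower at an unadjusted p under 0.05). All 12 macrophage markers rose after CSF1-Fc, with a median log2 fold change of 2.52 and a summed intensity of 18300 to 20029 in CSF1-Fc livers, against 4142 to 4193 in PBS livers. Kupffer cell markers were higher for 6 of 7 genes, at 16575 to 16775 in CSF1-Fc livers and 5601 to 6068 in PBS livers. Among sinusoidal endothelial markers 1 of 10 was higher and 2 were lower, and among stellate cell and fibroblast markers 1 of 14 was higher and 1 was lower. All 17 genes of the S, G2 and M phases of the cell cycle were higher, as were 4 of 4 inflammatory monocyte, 6 of 8 neutrophil, 2 of 4 megakaryocyte, 3 of 4 B cell, 1 of 5 T cell and 1 of 5 erythroid markers, with none of them lower. Of 5 cholangiocyte markers and 29 secreted liver proteins limma called none, with 1 and 2 lower at an unadjusted p under 0.05 and 0 higher. In whole liver RNA, fewer cells of a type and less RNA per cell cannot be told apart.

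Of the 58 members, 7 passed limma at an adjusted p under 0.05, of which CSF1-Fc livers exceeded PBS livers for 4 and fell short of them for 3, and 51 did not pass. The same test called 8.34% of all 18820 genes higher and 3.95% lower, so the members were called about as often as genes at large, at 6.90% and 5.17%. Higher were *Tgfb1*, which encodes the main TGF-β ligand, *Tgfbi*, a matrix protein named for its induction by TGF-β, *Acvrl1*, the endothelial type I receptor for BMP9 and BMP10, and *Bmp2k*, a kinase named after BMP2. Lower were *Inhbe*, the activin βE subunit made by hepatocytes, *Ltbp4*, a latent TGF-β binding protein of the matrix, and *Acvr2a*, a type II receptor for activins and BMPs. The median log2 fold change, CSF1-Fc over PBS, was -0.20 over the members and -0.08 over all genes. A negative value was seen for 42 members and a positive one for 16. Of all 18820 genes, 11651 were negative and 7169 positive. All CSF1-Fc arrays lay above both PBS arrays for 11 members and below both for 26, that is 18.97% and 44.8% of them, where 18.2% and 29.3% of all genes did so. The split of calls moved with the scaling: there were 4 higher and 4 lower after quantile normalization, 4 and 5 with arrays centred on their median, and 4 and 2 with arrays centred on secreted liver proteins. Over all genes, the calls in the same order were 1553 and 982, 1582 and 811, and 1881 and 314. Without variance moderation, *Tgfb1* alone of the 7 kept its call. With array weights 5 members were higher and 13 lower. Calls over all genes rose as well under these weights, to 2313 higher and 2231 lower, from 1570 and 743.

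**Figure D1:**
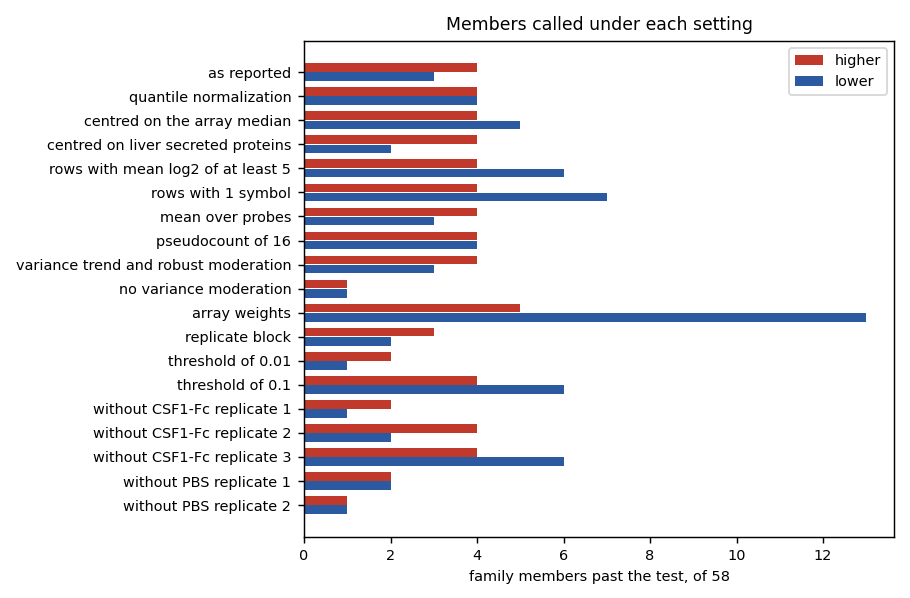
Number of the 58 members past the test (horizontal axis), higher in red and lower in blue, under each processing setting and with each mouse left out. The count higher runs between 1 and 5 and the count lower between 1 and 13, with 13 under array weights. Those weights also raised the calls over all genes, to 2313 higher and 2231 lower from 1570 and 743.

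**Figure D2:**
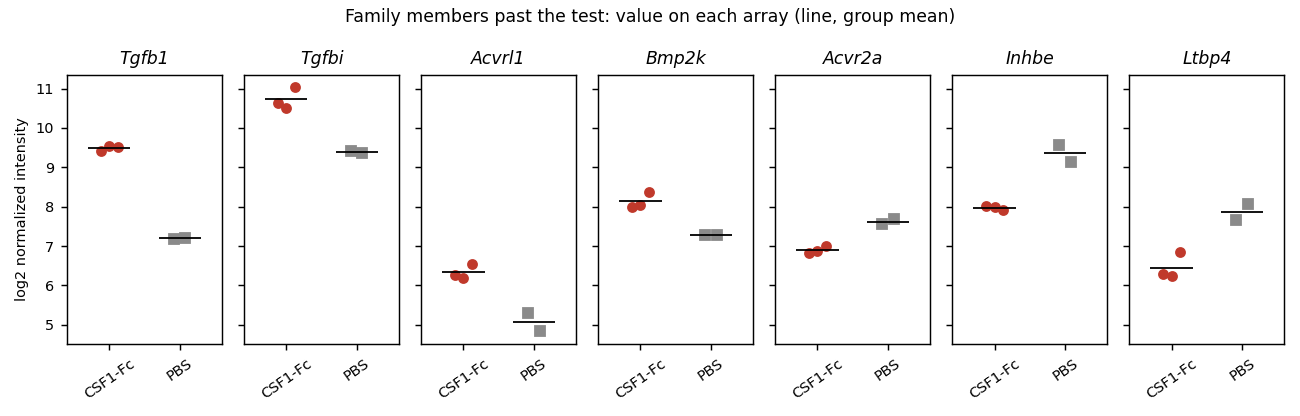
Log2 normalized intensity (vertical axis) of the 7 members past the test, on each CSF1-Fc array (red circles, 3 mice) and each PBS array (grey squares, 2 mice), with the group mean as a line. In none of the 7 do the groups overlap, and *Tgfb1* has the widest gap, with CSF1-Fc arrays at 9.41 to 9.53 and PBS arrays at 7.19 and 7.20.

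*Tgfb1* had log2 intensities of 9.41, 9.53 and 9.51 in CSF1-Fc livers, against 7.19 and 7.20 in PBS livers. The groups did not overlap and lay far apart against the spread within each. Its log2 fold change of 2.29 (standard error, SE, 0.12, 95% interval 1.99 to 2.59, adjusted p = 0.000376 from limma) corresponds to a rise of 4.89 times. It kept its call in all 16 alternative fits, at 2.17 to 2.49. The other TGF-β isoforms did not pass. *Tgfb3* was at 5.58, 5.57 and 5.49 in CSF1-Fc livers and 5.14 and 5.23 in PBS livers, a log2 fold change of 0.36 (adjusted p = 0.141), and *Tgfb2* was dim on every array. *Tgfb1* is made by macrophages as well as by other liver cells. The macrophage marker *Adgre1* was also higher, at 11.18, 11.03 and 11.06 in CSF1-Fc livers and 8.44 and 8.50 in PBS livers. Among the treated livers, replicate 1 held the lowest *Tgfb1* and the highest *Adgre1* value, and replicate 2 the reverse. Most inflammatory monocyte, neutrophil and B cell markers were higher too. The part of macrophage number in the *Tgfb1* rise was not tested.

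The 250 bases before the RefSeq start of *Tgfb1* (GRCm38.p6, chr7:25686752-25687001, plus strand) are shown because this gene had the largest difference among the members, and those of *Tgfbi* (chr13:56609336-56609585, plus strand) and *Inhbe* (chr10:127351849-127352098, minus strand) because they stand for a rise and a fall of similar size. Each was searched on both strands for GGCGCC, an element bound by BMP-activated SMADs, GTCTAGAC, the palindromic SMAD element, and GAGGAAGT, an element of the macrophage factor PU.1, and matches are in capitals.
Tgfb1: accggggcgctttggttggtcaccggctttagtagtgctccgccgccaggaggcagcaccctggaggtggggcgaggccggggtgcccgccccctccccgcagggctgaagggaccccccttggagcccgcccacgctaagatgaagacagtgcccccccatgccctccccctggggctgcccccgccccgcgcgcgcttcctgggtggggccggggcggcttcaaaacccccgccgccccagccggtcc
Tgfbi: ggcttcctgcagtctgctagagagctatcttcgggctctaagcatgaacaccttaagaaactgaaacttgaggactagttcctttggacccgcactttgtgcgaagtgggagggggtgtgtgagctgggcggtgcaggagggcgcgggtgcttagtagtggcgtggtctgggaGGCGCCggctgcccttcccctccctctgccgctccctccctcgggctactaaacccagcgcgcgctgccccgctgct
Inhbe: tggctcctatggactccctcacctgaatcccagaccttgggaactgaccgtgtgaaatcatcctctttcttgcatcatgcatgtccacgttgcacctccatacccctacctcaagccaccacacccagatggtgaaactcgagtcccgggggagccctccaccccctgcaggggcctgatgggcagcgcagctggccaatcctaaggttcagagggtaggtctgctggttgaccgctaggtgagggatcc
The *Tgfbi* window held GGCGCC once, and the windows of *Tgfb1* and *Inhbe* held none of the 3 elements. G and C made up 75.2% of the *Tgfb1* window, 62.4% of the *Tgfbi* window and 58.8% of the *Inhbe* window. RefSeq windows were at hand for 42 of the 58 members, of which 9 held GGCGCC in at least 1 window, among them the called genes *Tgfbi*, *Bmp2k* and *Ltbp4*. Counted by window, GGCGCC was in 10 of the 52 windows of these members and in 9.59% of all 32851 windows, GTCTAGAC in 0.167% and GAGGAAGT in 2.44%, and no member's window held either of the last 2.

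Latent TGF-β binding proteins are named for holding the ligand, and 1 of the 4 measured was lower. *Ltbp4* was at 6.28, 6.23 and 6.84 in CSF1-Fc livers and 7.66 and 8.08 in PBS livers, a log2 fold change of -1.42 (SE 0.24, adjusted p = 0.0158 from limma), so that the treated livers all lay below both controls. The call was lost without CSF1-Fc replicate 1 (-1.33, adjusted p = 0.0713) and without PBS replicate 2 (-1.21, adjusted p = 0.128). *Ltbp1* was at 4.50, 4.52 and 4.94 in CSF1-Fc livers and 5.23 and 5.14 in PBS livers (-0.53, adjusted p = 0.13), and passed without CSF1-Fc replicate 3 (-0.67, adjusted p = 0.0355). *Ltbp3* was at -0.39 (adjusted p = 0.22). Outside the family, *Nrros*, whose product holds latent TGF-β1 on the surface of myeloid cells, rose by a log2 fold change of 2.42 (SE 0.16, adjusted p = 0.00045), with log2 intensities of 8.08, 7.72 and 7.99 in CSF1-Fc livers and 5.43 and 5.59 in PBS livers. *Lrrc32*, the related anchor of regulatory T cells and platelets, was at 7.55, 7.69 and 7.50 in CSF1-Fc livers and 7.24 and 7.19 in PBS livers (0.36, adjusted p = 0.155). Of these proteins only the myeloid anchor was called higher, as *Tgfb1* was. *Ltbp1*, *Ltbp3* and *Ltbp4* had negative values, of which that of *Ltbp4* passed the test, and *Ltbp2* was dim. Of 21 genes outside the family for ligands, their processing and latency, 1 was higher (*Nrros*) and 1 was lower. The lower one was *Pcsk6*, a convertase of pro-proteins, at -1.07 (SE 0.22, adjusted p = 0.0308). *Pcsk6* no longer passed without CSF1-Fc replicate 1 (0.0726), PBS replicate 1 (0.137) or PBS replicate 2 (0.193), these being adjusted p values.

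Activin and inhibin subunits pair to form activins or inhibins, and hepatocytes are the main source of the βC and βE chains encoded by *Inhbc* and *Inhbe*. *Inhbe* was at 8.01, 7.98 and 7.93 in CSF1-Fc livers and 9.57 and 9.13 in PBS livers, a log2 fold change of -1.38 (SE 0.16, 95% interval -1.78 to -0.98, adjusted p = 0.00405), or a fall of 2.60 times. The treated livers were within 0.08 of each other and the PBS livers 0.44 apart. Without any single mouse the call stood, and it was lost only without variance moderation (adjusted p = 0.0825). *Inhbc*, its neighbour on chromosome 10 with no RefSeq gene starting between them, was at 9.39, 9.48 and 9.32 in CSF1-Fc livers and 9.92 and 9.89 in PBS livers. That difference of -0.51 (SE 0.13, adjusted p = 0.0593) missed the threshold and passed in 4 alternative fits. *Inhba*, the βA chain of activin A, was at 7.62, 7.22 and 7.90 in CSF1-Fc livers and 8.45 and 7.97 in PBS livers (-0.63, adjusted p = 0.191), with a gap between the groups smaller than the spread within either. *Inhbb* and *Inha* were dim. The 14 hepatocyte markers had log2 fold changes between -0.93 and 0.06 with a median of -0.12. *Alb* (0.03), *Apoa1* (0.01) and *Ahsg* (0.06) had positive values. The others were negative, with *Tat* (-0.93) and *Cps1* (-0.62) furthest from 0. The summed intensity of the 14 was lower in every CSF1-Fc liver (76383 to 83699) than in the PBS livers (87522 to 89971). The part of this in the *Inhbe* fall was not tested.

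No BMP or GDF ligand passed the limma test (0 higher and 3 lower at an unadjusted p under 0.05), and the 17 measured had log2 fold changes between -0.42 and 0.35. *Bmp2*, which liver endothelial cells secrete, was at 6.83, 7.57 and 7.47 in CSF1-Fc livers and 7.75 and 7.68 in PBS livers (-0.42, 95% interval -0.997 to 0.15, adjusted p = 0.355). CSF1-Fc replicate 1 held the lowest value. *Bmp5* and *Bmp7* were each at -0.40 (adjusted p = 0.202 and 0.196), with all CSF1-Fc arrays below both PBS arrays, and both passed with array weights. A second, dim *Bmp7* row was at -0.03 (adjusted p = 0.956) with overlapping groups. *Gdf2*, which encodes BMP9 and is made by stellate cells, was at 6.94 in each CSF1-Fc liver and 7.11 and 7.15 in PBS livers. Its difference of -0.19 had a 95% interval of -0.48 to 0.10, and it passed without variance moderation (adjusted p = 0.0457). *Gdf10*, its RefSeq neighbour on chromosome 14, was at -0.15 (adjusted p = 0.637), *Bmp4* at -0.17 (adjusted p = 0.588), *Gdf7* at -0.25 (adjusted p = 0.288) and *Bmp10* at -0.13 (adjusted p = 0.793). *Bmp8a* was dim, at -0.40 (adjusted p = 0.145).

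Among 11 receptors, which did not include *Tgfbr2*, 1 was higher and 1 was lower. *Acvrl1*, which encodes ALK1, was at 6.28, 6.18 and 6.55 in CSF1-Fc livers and 5.31 and 4.83 in PBS livers, a log2 fold change of 1.26 (SE 0.20, 95% interval 0.79 to 1.74, adjusted p = 0.012 from limma). Its PBS values lay near a log2 intensity of 5, where the size of a change is less certain. The call was lost without PBS replicate 2 (1.03, adjusted p = 0.0892) and, narrowly, without CSF1-Fc replicate 1 (1.29, adjusted p = 0.0509). *Eng*, the co-receptor endoglin that works with ALK1, did not follow it, at 9.19, 9.39 and 9.47 in CSF1-Fc livers and 9.51 and 9.75 in PBS livers (-0.28, adjusted p = 0.338). Endothelial markers were mixed beside this rise. *Cdh5* (VE-cadherin) was at 10.09, 9.88 and 10.47 in CSF1-Fc livers and 8.69 and 8.83 in PBS livers, a log2 fold change of 1.38 (adjusted p = 0.0087). *Clec4g* at -0.74 (adjusted p = 0.0176) and *Dnase1l3* at -0.80 (adjusted p = 0.0196) were lower by limma, and the other 7 sinusoidal markers did not pass. The summed intensity of the 10 sinusoidal markers was 4620 to 5517 in CSF1-Fc livers and 5436 to 5805 in PBS livers. The part of endothelial cells in the *Acvrl1* rise was not tested.

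*Acvr2a* was at 6.83, 6.88 and 7.01 in CSF1-Fc livers and 7.55 and 7.68 in PBS livers, a log2 fold change of -0.71 (SE 0.13, adjusted p = 0.0234). Its groups did not overlap, but of the 7 calls this one was lost in the most alternative fits. It was lost without CSF1-Fc replicate 1 (adjusted p = 0.103) or 2 (0.0508), without PBS replicate 1 (0.112) or 2 (0.197), with the replicate number as a block (0.0698) and with arrays centred on secreted liver proteins (-0.51, adjusted p = 0.137). *Acvr2b*, the second activin type II receptor, was at -0.30 (adjusted p = 0.305). The type III receptor betaglycan, *Tgfbr3*, which presents TGF-β2 and inhibins, came close to the threshold, at 6.20, 6.59 and 6.78 in CSF1-Fc livers and 7.36 and 7.34 in PBS livers (-0.83, SE 0.19, adjusted p = 0.0512). It passed in 6 alternative fits, among them that without CSF1-Fc replicate 3 (-0.95, adjusted p = 0.0332). The type I receptors *Tgfbr1* at 0.21 (95% interval -0.15 to 0.57), *Acvr1* at -0.45 (-0.84 to -0.06), *Acvr1b* at -0.02 (-0.41 to 0.38) and *Bmpr1a* at -0.34 (-0.65 to -0.03), and the type II receptor *Bmpr2* at -0.40 (-0.92 to 0.11), did not pass.

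**Figure D3:**
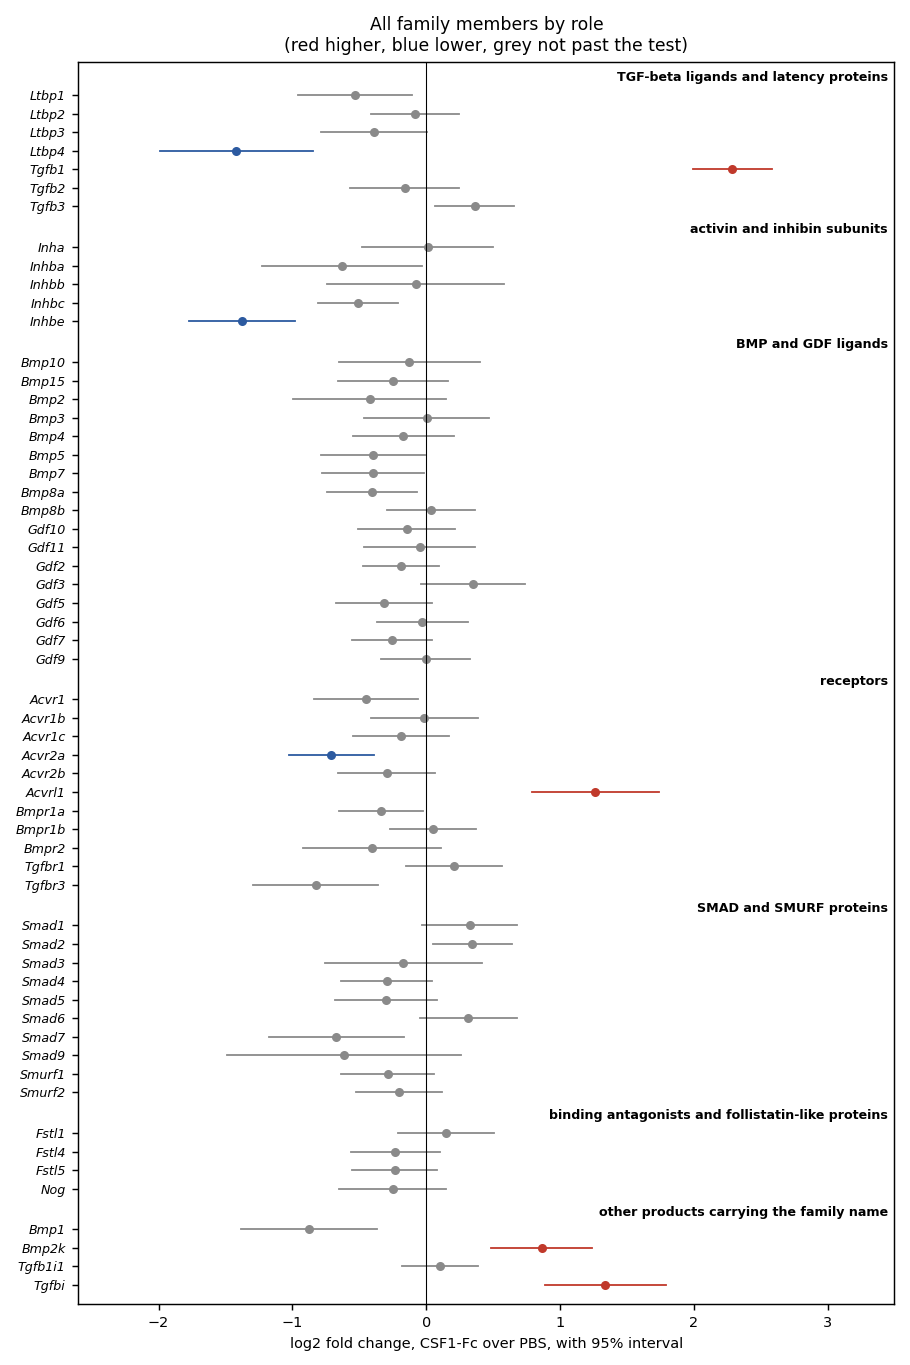
Log2 fold change, CSF1-Fc over PBS (horizontal axis), of all 58 members grouped by role, with the 95% interval from limma as a line; red members were higher, blue lower and grey ones did not pass an adjusted p of 0.05. *Tgfb1* at 2.29 lies apart from the rest, and the ligands of the BMP and GDF group all sit between -0.42 and 0.35.

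No SMAD or SMURF transcript passed the limma test (1 higher and 1 lower at an unadjusted p under 0.05), and the 10 measured lay between -0.67 and 0.35. Their signs were mixed within each branch. *Smad2*, of the TGF-β and activin branch, was at 7.49, 7.61 and 7.59 in CSF1-Fc livers and 7.20 and 7.24 in PBS livers (0.35, adjusted p = 0.156), and *Smad3* was at 7.42, 7.40 and 7.78 in CSF1-Fc livers and 7.35 and 8.06 in PBS livers (-0.17, adjusted p = 0.741). For *Smad3* the PBS livers were further apart than the group means. Of the BMP branch, *Smad1* was at 0.32 (adjusted p = 0.252), *Smad5* at -0.30 (adjusted p = 0.325) and *Smad9* at -0.61 (adjusted p = 0.379). *Smad9* varied most between treated livers, at 6.26, 6.82 and 7.57, against 7.60 and 7.39 in PBS livers. The shared *Smad4* was at -0.30 (95% interval -0.64 to 0.04). The inhibitory *Smad7*, itself induced by TGF-β signalling, was at 6.85, 6.90 and 7.12 in CSF1-Fc livers and 7.93 and 7.33 in PBS livers (-0.67, SE 0.21, adjusted p = 0.114), and the inhibitory *Smad6* was at 5.85, 6.14 and 5.89 in CSF1-Fc livers and 5.55 and 5.73 in PBS livers (0.32, adjusted p = 0.272). *Smurf1* was at -0.29 (adjusted p = 0.298) and *Smurf2* at -0.20 (adjusted p = 0.429), with a second *Smurf2* row at -0.54 (adjusted p = 0.114).

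*Tgfbi* was at 10.64, 10.501 and 11.05 in CSF1-Fc livers and 9.43 and 9.36 in PBS livers, a log2 fold change of 1.34 (SE 0.19, adjusted p = 0.00803), or 2.53 times. The part of TGF-β signalling or of macrophage number in the *Tgfbi* rise was not tested. The treated livers lay more than 1 log2 unit above both controls, and the call was lost without PBS replicate 1 (adjusted p = 0.0584) and without PBS replicate 2 (adjusted p = 0.0759). *Bmp2k* was at 7.99, 8.05 and 8.36 in CSF1-Fc livers and 7.27 in both PBS livers, a log2 fold change of 0.86 (SE 0.16, adjusted p = 0.0212). It was not called without CSF1-Fc replicate 1 (0.0556), PBS replicate 1 (0.127) or PBS replicate 2 (0.15), nor with the replicate number as a block (0.0722), all adjusted p values. *Bmp1*, a protease that cleaves procollagen and frees TGF-β and BMPs from their binders, had the opposite sign, at 9.44, 9.08 and 9.68 in CSF1-Fc livers and 10.11 and 10.43 in PBS livers (-0.87, SE 0.21, adjusted p = 0.0559). It passed in 5 alternative fits, one of them without CSF1-Fc replicate 3 (-1.01, adjusted p = 0.0369). *Tgfb1i1*, a focal adhesion adaptor, was at 0.10 (adjusted p = 0.671). None of the 4 secreted antagonists and follistatin-like proteins, which did not include *Fst*, passed the limma test, nor did any at an unadjusted p under 0.05. *Fstl1* was at 5.98, 5.75 and 6.09 in CSF1-Fc livers and 5.78 and 5.81 in PBS livers (0.15, adjusted p = 0.629), and the dim *Fstl4*, *Fstl5* and *Nog* were at -0.23, -0.24 and -0.25.

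The remaining members, *Ltbp2*, *Tgfb2*, *Inha*, *Inhbb*, *Bmp3*, *Bmp8b*, *Bmp15*, *Gdf3*, *Gdf5*, *Gdf6*, *Gdf9*, *Gdf11*, *Acvr1c* and *Bmpr1b*, were all dim, with no array above a log2 intensity of 4.84. Their log2 fold changes ran between -0.31 and 0.35 and none had an adjusted p under 0.262. At such intensities the size of a change is uncertain. In all, 18 of the 58 members had a mean log2 intensity under 5 in both groups.

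Of 19 transcripts outside the family that are known to respond quickly to SMAD signalling, 4 were higher and 0 were lower by limma (4 and 2 at an unadjusted p under 0.05), with a median log2 fold change of -0.13. Of all genes the test called 8.34% higher and 3.95% lower. *Hey1*, a transcriptional repressor that ALK1 and Notch induce, was at 6.24, 6.59 and 6.50 in CSF1-Fc livers and 5.29 and 4.94 in PBS livers, a log2 fold change of 1.33 (SE 0.17, adjusted p = 0.00617). The PBS values of *Hey1* were also near a log2 intensity of 5, so the size of its rise is less certain. *Id1*, a target of BMP SMADs, was at 8.21, 8.33 and 7.88 in CSF1-Fc livers and 7.13 and 6.62 in PBS livers (1.27, SE 0.21, adjusted p = 0.0155). Without PBS replicate 2 neither passed, at adjusted p values of 0.0617 for *Hey1* and 0.113 for *Id1*, and *Id1* also missed without CSF1-Fc replicate 1 (0.0721). *Cdkn1a*, the cell cycle inhibitor p21 that TGF-β and p53 both induce, was at 0.96 (adjusted p = 0.0476), and *Rhob*, a small GTPase, at 0.71 (adjusted p = 0.033). Each of these calls was lost when either PBS mouse or CSF1-Fc replicate 1 or 2 was left out, at adjusted p values up to 0.286 for *Cdkn1a* and 0.246 for *Rhob*, and after quantile normalization (0.0568 and 0.0518).

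Other targets of the BMP branch did not pass. *Id3* was at 8.39, 8.87 and 8.22 in CSF1-Fc livers and 9.35 and 7.54 in PBS livers, so the PBS pair enclosed all treated values. *Atoh8* was at 6.87, 7.15 and 7.41 in CSF1-Fc livers and 7.83 and 8.61 in PBS livers (-1.08, SE 0.27, adjusted p = 0.0626). *Hamp*, which encodes hepcidin, was at 9.89, 11.52 and 10.92 in CSF1-Fc livers and 11.92 and 11.03 in PBS livers (-0.70, 95% interval -1.89 to 0.49, adjusted p = 0.467), with overlapping groups. *Id2* was at -0.20 (adjusted p = 0.538). *Pmepa1* and *Bambi*, feedback inhibitors of TGF-β signalling, were at -0.30 (adjusted p = 0.544) and 0.02 (adjusted p = 0.954). The other early targets did not pass limma either. *Ccn2* was at -0.008 (adjusted p = 0.988), *Klf10* at -0.44 (0.433), *Tsc22d1* at -0.92 (0.105) and *Hamp2* at -0.73 (0.272). *Snai1*, *Snai2*, *Cdkn2b* and *Id4* were at -0.14, -0.20, -0.13 and -0.20. *Junb*, *Hes1* and *Dact1* were at 0.26, 0.34 and 0.02.

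Of 31 cytoplasmic and nuclear regulators, 1 was higher and 1 was lower. *Dab2*, an endocytic adaptor that links TGF-β receptors to SMADs and is also expressed by macrophages, was at 10.16, 9.81 and 10.23 in CSF1-Fc livers and 8.41 and 8.39 in PBS livers (1.67, SE 0.16, adjusted p = 0.0018). The *Dab2* call was lost without variance moderation (adjusted p = 0.0647). The ubiquitin ligase *Nedd4l*, which marks activated SMAD2 and SMAD3 for degradation, was at 9.16, 8.70 and 8.90 in CSF1-Fc livers and 9.64 and 9.74 in PBS livers (-0.77, SE 0.17, adjusted p = 0.0408), a call lost when any 1 of the 5 mice was left out, at adjusted p values of 0.0517 to 0.246, and with arrays centred on secreted proteins (-0.57, adjusted p = 0.106). Of 20 antagonists and co-receptors, 0 were higher and 1 was lower by limma, as at an unadjusted p under 0.05. It was *Neo1*, neogenin, the receptor of the BMP co-receptor hemojuvelin, at 7.26, 6.98 and 7.30 in CSF1-Fc livers and 8.05 and 8.02 in PBS livers (-0.85, SE 0.15, adjusted p = 0.0185), which did not pass without CSF1-Fc replicate 1 (0.067), PBS replicate 1 (0.123) or PBS replicate 2 (0.135). Hemojuvelin itself, *Hjv*, was at -0.13 (adjusted p = 0.685). Over the 91 pathway genes outside the family, 6 were higher and 3 were lower, or 6.59% and 3.30%, where all genes gave 8.34% and 3.95%.

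**Figure D4:**
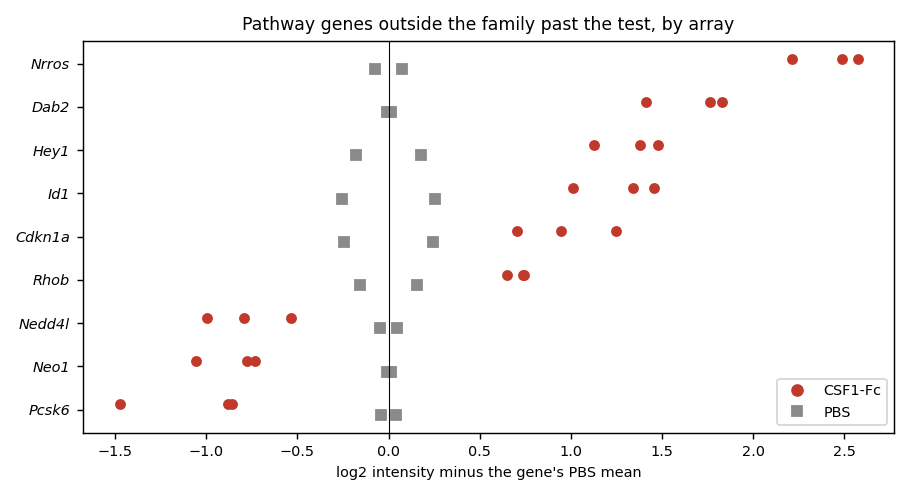
Log2 intensity on each array minus the gene's PBS mean (horizontal axis) for the 9 pathway genes outside the family that passed the test, with CSF1-Fc arrays as red circles and PBS arrays as grey squares. *Nrros* and *Dab2* have the widest gaps, with log2 fold changes of 2.42 and 1.67, and for all 9 genes the CSF1-Fc arrays lie on one side of both PBS arrays.

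The members had a median log2 fold change of -0.20, where the macrophage markers had a median of 2.52 and the Kupffer cell markers 1.94. The stellate cell and fibroblast list, whose genes include the matrix products of TGF-β action, had a median of -0.33. Its summed intensity was 3355 to 4219 in CSF1-Fc livers and 4427 to 4593 in PBS livers. The gene of that list called higher by limma was *Acta2*, smooth muscle actin, at 8.65, 8.46 and 8.08 in CSF1-Fc livers and 6.30 and 6.52 in PBS livers (1.99, SE 0.20, adjusted p = 0.00182). The one called lower was *Colec11*, at -0.58 (adjusted p = 0.0493). The collagen genes *Col1a1*, *Col1a2* and *Col3a1* were at -0.26, -0.31 and -0.29 and did not pass. Besides *Acta2*, only *Lum* (0.05) had a positive value in the list. The part of any of these cell types in the members' values was not tested.

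**Figure D5:**
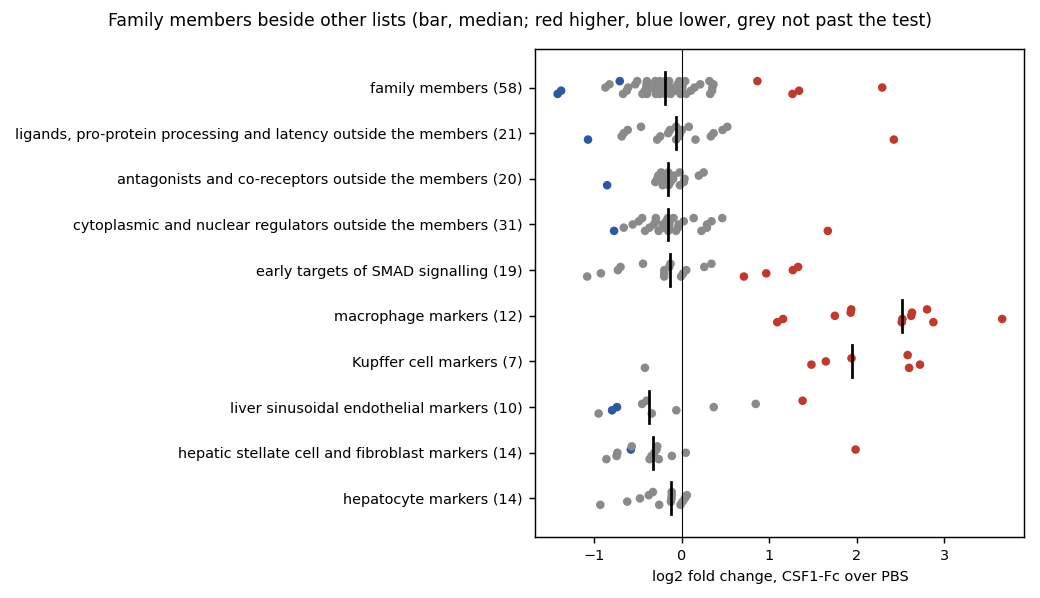
Log2 fold change, CSF1-Fc over PBS (horizontal axis), of each gene in the family, in the 4 pathway lists and in 5 cell type lists, with the number of genes in brackets and the median as a bar; red genes were higher, blue lower and grey ones did not pass. The family has a median of -0.20 with *Tgfb1* at its right end, and the macrophage list has a median of 2.52.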

How the data were processed

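Normalized intensities of liver RNA, 1 array per mouse, were taken as deposited on a linear scale for 35556 transcript rows. The authors scanned Affymetrix Mouse Gene 1.1 ST arrays, checked them in Expression Console (version 1.1 in the submitters' processing notes) and used Partek Genomics Suite, and neither the background correction nor the normalization method is stated in the sources read. Values were taken as log2 with no pseudocount and fitted with limma 3.58.1 in R 4.3.3 (1 mean per condition, eBayes, 3 residual and 3.34 prior degrees of freedom), with Benjamini-Hochberg adjustment over all rows. Of the rows, 21218 carried 1 symbol, 1881 several and 12457 were unnamed here, and each gene was read from its brightest row of 1 symbol. With 2 mice against 3, no exact permutation test can reach 0.05, and precision is limited by having 5 arrays.

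All 58 members matched RefSeq under the same symbol. The members and lists were chosen with earlier results of these data known. Named were all members past the threshold, and in each role the brightest member and up to 3 with the largest change, and for pathway lists up to 4 past the threshold in each direction. The other members with a mean log2 of at least 5 in a group, *Bmp8a* and the pathway and marker genes beside them (*Adgre1*, *Cdh5*, *Acta2*, *Lrrc32*, *Eng*, *Id2*, *Id3*, *Atoh8*, *Hamp*, *Pmepa1*, *Bambi*, *Hjv*) were chosen after their values were seen. So were *Clec4g*, *Dnase1l3*, *Alb*, *Apoa1*, *Ahsg*, *Tat*, *Cps1*, *Colec11*, *Col1a1*, *Col1a2*, *Col3a1*, *Lum* and the other early SMAD targets. Promoter windows came from RefSeq (GRCm38.p6). Alternatives were other normalizations, centrings, filters, probe choices, a pseudocount of 16, variance models, array weights (statmod 1.5.0), a replicate block, other thresholds and each mouse left out. The script was tested on simulated data.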

Additional observations from a re-analysis of the deposited data

How the results depend on the processing

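The rises of *Tgfb1* and *Nrros* were called in each of the 16 alternative fits, and the values of the 7 called members kept their direction throughout, with 90 of 112 alternative values still past the threshold. Members higher numbered 1 without variance moderation and 2 at a threshold of 0.01, and 1 to 4 when 1 mouse was left out. Members lower numbered 5 with arrays centred on the median, 6 over rows with a mean log2 of at least 5, 7 over rows with 1 symbol, 1 without moderation, 13 with array weights, 1 at a threshold of 0.01, 6 at 0.1, and 1 to 6 with 1 mouse left out. The array weights added calls for *Acvr1*, *Bmp1*, *Bmp5*, *Bmp7*, *Bmpr1a*, *Inhbc*, *Ltbp1*, *Smad7*, *Smad9* and *Tgfbr3* among the falls and *Tgfb3* among the rises. Without variance moderation, only *Tgfb1* of the 7 called members and *Nrros* of the 9 called pathway genes kept their call. Other pathway genes higher numbered 1 without moderation, 3 at 0.01 and 2 to 6 with 1 mouse left out. Other pathway genes lower numbered 5 after quantile normalization, 6 over rows with a mean log2 of at least 5, 11 over rows with 1 symbol, 6 with the pseudocount, 0 without moderation, 14 with array weights, 0 at 0.01, 8 at 0.1 and 0 to 7 with 1 mouse left out. Over all named genes, the count higher was 419 without moderation, 974 at 0.01 and 849 to 1525 with 1 mouse left out. The count lower was 314 centred on secreted proteins, 1637 over rows with 1 symbol, 92 without moderation, 2231 with array weights, 481 with the replicate block, 126 at 0.01, 1393 at 0.1 and 81 to 1046 with 1 mouse left out. The causes were not tested. Centring on secreted proteins shifted the median of all rows to 0.13, against -0.08 as reported. There the near-0 values of *Acvr1b* (0.19), *Bmp10* (0.076), *Bmp4* (0.033), *Gdf10* (0.058), *Gdf2* (0.013) and *Smad3* (0.032) turned positive. With 1 mouse left out, *Acvr1b* ran between -0.16 and 0.13, *Bmp10* between -0.38 and 0.13, *Bmp4* between -0.36 and 0.019, *Gdf10* between -0.33 and 0.035 and *Smad3* between -0.53 and 0.18.

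The groups share replicate numbers 1 and 2 in the titles, but nothing says that they pair mice. Deviations from the group means correlated at -0.07 for number 1 and -0.25 for number 2 over all rows. With 2 PBS arrays the deviations of one mirror those of the other. The unmatched pairs therefore gave 0.07 (CSF1-Fc 1 with PBS 2) and 0.25 (CSF1-Fc 2 with PBS 1). These correlations cannot tell whether the numbers pair mice. With the replicate block, in which CSF1-Fc replicate 3 adds nothing to the difference and 1 residual degree of freedom is left, 3 members were higher and 2 lower.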

Other observations

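Within the groups, some members differed between mice. The PBS livers differed by more than 0.5 log2 units for 4 members (*Inhbb*, *Bmp10*, *Smad3* and *Smad7*), and the CSF1-Fc livers spanned more than 0.5 for 11 members, among them *Ltbp4*, *Smad9*, *Bmpr2* and *Tgfbr3*. For 15 of the 58 members the PBS livers differed by more than the groups did. These counts cover the members only and do not tell whether other genes spread as much. CSF1-Fc replicate 3 lay nearest to the PBS mean for 25 members (43.1%), against 15 for replicate 1 and 18 for replicate 2, and over all 18820 genes replicate 3 was nearest for 37.5%. It held the highest CSF1-Fc value for *Smad9* (7.57), *Bmpr2* (9.37) and *Ltbp4* (6.84).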
